A study of Mus musculus with 6 samples.

Results

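The autophagy genes described here are 35 protein-coding mouse genes that encode the machinery of autophagosome formation and the receptors that bring cargo to it. They were listed by symbol as genes of this pathway, with no threshold on a measured value but with earlier results of these data known, and all 35 were found among the 41388 Ensembl genes of the deposited tables. RNA was measured by bulk sequencing in macrophages sorted from the aortic intima of C57BL/6 mice that lack ApoE and had eaten a Western diet for 28 weeks. The series design gives 6 mice, and neither their age nor how they were divided or pooled among libraries is stated. The p-values here therefore reflect only how much these libraries vary, which may be technical. The sort took live CD64+CD11b+ macrophages and parted them by BODIPY, which stains neutral lipid, and by side scatter. Cells high in both are called foamy and cells low in both non-foamy; all came from mice of the same genotype and diet, and each population gave 3 libraries. No mouse with intact ApoE was analysed here, so each difference below is between cells within diseased aortas.

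Autophagy encloses cytoplasm, damaged organelles or lipid droplets in a double membrane and delivers them to the lysosome. The ULK kinase complex starts the process, a class III PI3-kinase complex marks the membrane, and an ATG12-ATG5-ATG16L1 conjugate attaches LC3 and GABARAP proteins to it. Cargo receptors such as p62 bind both the cargo and these LC3 and GABARAP proteins. In macrophages the route is known for degrading lipid droplets, so that the cholesterol they hold can leave the cell, and mice whose macrophages lack Atg5 are known to develop larger atherosclerotic plaques.

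Foamy libraries held more RNA of 4 of the 34 autophagy genes that could be tested: Gabarapl1 and Map1lc3b, which encode membrane-bound LC3 and GABARAP proteins, and the cargo receptors Bnip3l and Tollip. Each of the 4 lay higher in every foamy than in every non-foamy library, by 1.67 to 2.66 times in mean level. Sqstm1, which encodes the receptor p62, lay lower in every foamy than in every non-foamy library, with a log2 fold change of -0.67 (SE 0.20) that did not pass the test. Genes of the kinase and lipid-kinase complexes that start autophagy, and of the conjugation enzymes, held no call in either direction. In bulk RNA, fewer cells of a type and less RNA per cell cannot be told apart.

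Counts per gene were tested with edgeR's quasi-likelihood test, and a gene is called where its p, adjusted over all 11303 genes tested, is under 0.05. Of all genes tested, 611 were called, which is 5.41%, with 283 (2.50%) higher and 328 (2.90%) lower in foamy libraries. Of the 34 autophagy genes tested, 4 (11.76%) were called higher and 0 lower, a share above that of all genes that rests on 4 genes of a set named with earlier results known. With one library left out, edgeR called 0 to 4 autophagy genes: among foamy libraries, omitting replicate 1 left 1 call and omitting replicate 2 or 3 left 0. Omitting non-foamy replicate 1 left 4 calls, and omitting one of the other non-foamy libraries left 2. At an unadjusted p under 0.05 there were 9 autophagy genes, 26.47% of those tested, of which 8 were higher and 1, Sqstm1, was lower; the share among all genes was 18.7%. DESeq2 and limma-voom each called 4 higher and 0 lower as well. The median fold change of foamy over non-foamy libraries, on the log2 scale, was 0.10 over the autophagy genes and -0.04 over all genes tested, with 20 autophagy genes above 0 and 14 below. In 11 autophagy genes (32.35%) the foamy and non-foamy values did not overlap, against 25.7% of all genes. Of these, 6 lay above, where all genes had 12.4%, and 5 below, a share close to the 13.3% of all genes.

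Foamy libraries held 18592421 to 24279802 counts and non-foamy libraries 15628627 to 24619075. Foamy libraries had a count in 15595 to 17757 genes and non-foamy libraries in 19380 to 24701, the most in replicate 1, the shallowest of all 6. Non-foamy replicate 1 was the only library without which the 4 autophagy genes were all called again, with edgeR adjusted p from 0.0156 to 0.0455. Values below are CPM, counts relative to the library's total, with that total adjusted by edgeR's TMM factors. Scaling to total counts alone moved the median of all genes from -0.04 to -0.31 and that of the autophagy genes from 0.10 to -0.16. Under that scaling 1 autophagy gene, Gabarapl1, was called higher, and 2, Sqstm1 and Vmp1, were called lower. The macrophage markers were measured in both populations: 10 of 10 were tested, and their summed level was 19790 to 28230 CPM in the non-foamy and 24810 to 32510 CPM in the foamy libraries. That sum is mostly Cd68 and C1qb, and single markers differed: edgeR called 2 of the 10 higher in foamy libraries, Mertk (log2 fold change 1.37) and Cd68 (0.97), and 4 lower, Csf1r (-1.28), Cd14 (-0.93), Itgam (-0.87) and Adgre1 (-0.83).

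**Figure D1:**
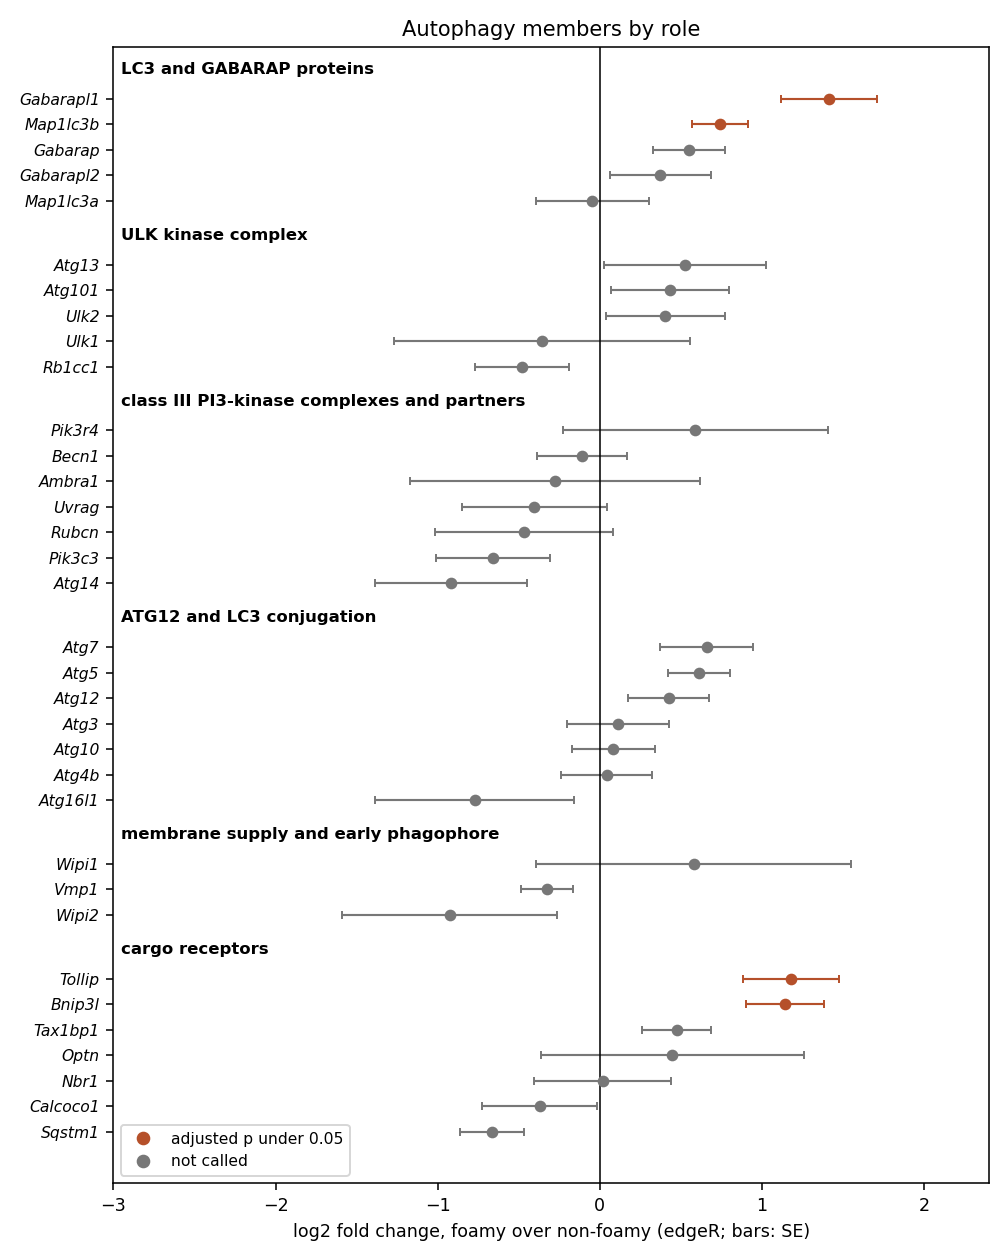
Log2 fold change (foamy over non-foamy, horizontal axis) of the 34 autophagy genes tested, in groups by role; points are edgeR estimates, bars are 1 SE, and red points have an adjusted p under 0.05. The called genes are Gabarapl1 and Map1lc3b among the LC3 and GABARAP genes and Tollip and Bnip3l among the receptors, and Sqstm1 lies at -0.67.

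LC3 and GABARAP proteins are small ubiquitin-like proteins that are joined to a membrane lipid and hold cargo receptors on the growing autophagosome. Of the 5 genes, 2 were called higher in foamy libraries, 4 had a positive log2 fold change, and the median was 0.55 (0.29 when only total counts set the scale). Gabarapl1 (ENSMUSG00000030161, GRCm38 chr6:129533200-129542331, plus strand; spans given here are of whole genes, whose exons were counted) had 47.8, 52.0 and 55.5 CPM in foamy replicates 1 to 3 and 12.7, 25.6 and 19.96 CPM in non-foamy replicates 1 to 3. All 3 foamy values were above all non-foamy values, and the foamy libraries lay close together. The means were 51.8 ± 3.88 and 19.4 ± 6.48 CPM (SD, n = 3), a log2 fold change of 1.41 (SE 0.29, edgeR adjusted p = 0.0175). The call was lost without foamy replicate 1 (1.48, edgeR adjusted p = 0.0504), 2 (1.42) or 3 (1.37), and in the test against a 1.5-fold change (edgeR adjusted p = 0.0809).

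Map1lc3b encodes LC3B, the form most used to stain autophagosomes. Map1lc3b (ENSMUSG00000031812, chr8:121590361-121598760, plus strand) had 575, 532 and 607 CPM in the foamy libraries, against 392, 339 and 294 CPM in the non-foamy ones. The groups did not overlap, and the lowest foamy library stood well above the highest non-foamy one. The log2 fold change was 0.74 (SE 0.17, edgeR adjusted p = 0.0321), with means of 571 ± 37.5 and 342 ± 49.4 CPM (SD, n = 3). The Map1lc3b call was lost in 8 of 14 alternatives, among them total counts alone as the scale (0.46, edgeR adjusted p = 0.181), the test against a 1.5-fold change and a block on the replicate number (0.75, edgeR adjusted p = 0.112). Leaving out foamy replicate 1 (0.75), 2 (0.80) or 3 (0.70), or one of non-foamy replicates 2 (0.74) and 3 (0.66), also ended it, while the log2 fold change stayed between 0.46 and 0.86.

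Gabarap encodes the founding GABARAP protein, which also acts in receptor transport. Gabarap had 1219.7, 1089.5 and 899 CPM in the foamy libraries, against 516, 764 and 914.5 CPM in the non-foamy ones. Foamy replicate 3 fell below non-foamy replicate 3, so the groups overlapped, and the log2 fold change of 0.55 (SE 0.22, edgeR adjusted p = 0.209) was not called. Gabarapl2, which encodes GATE-16, had 23.8, 26.4 and 20.1 CPM in the foamy libraries, against 14.1, 16.8 and 23.3 CPM in the non-foamy ones (log2 fold change 0.37, SE 0.31). Map1lc3a, which encodes LC3A, had 16.9, 13.04 and 14.8 CPM in the foamy libraries, against 13.8, 11.9 and 20.5 CPM in the non-foamy ones (log2 fold change -0.05, SE 0.35). Both genes overlapped between the groups, and non-foamy replicate 3 was the highest non-foamy library in each.

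Per kilobase of exon, Gabarap held most of the family's RNA in every library. Its share of the family's CPM per kilobase was 81.7 ± 2.80% in foamy and 83.05 ± 4.17% in non-foamy libraries (SD, n = 3). The length used is that of all exons of a gene, 7517 bases for Map1lc3b and 1844 for Gabarap, not that of one transcript. These shares depend on that choice. Without division by length, the means of Gabarap and Map1lc3b were 1069 and 571 CPM in foamy and 731 and 342 CPM in non-foamy libraries. The share of Gabarapl1 was 3.43, 4.13 and 5.07% in foamy and 2.02, 2.96 and 1.97% in non-foamy libraries. It was therefore larger in each foamy library than in each non-foamy one, while Map1lc3b, at 10.9 ± 1.86% and 10.2 ± 4.01%, overlapped. The family sum was 708 ± 84.5 against 474 ± 109 CPM per kilobase, and the ratio of Gabarapl1 to Gabarap counts within a library did not overlap between the groups (0.0392, 0.0478 and 0.0618 against 0.0247, 0.0336 and 0.0218).

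**Figure D2:**
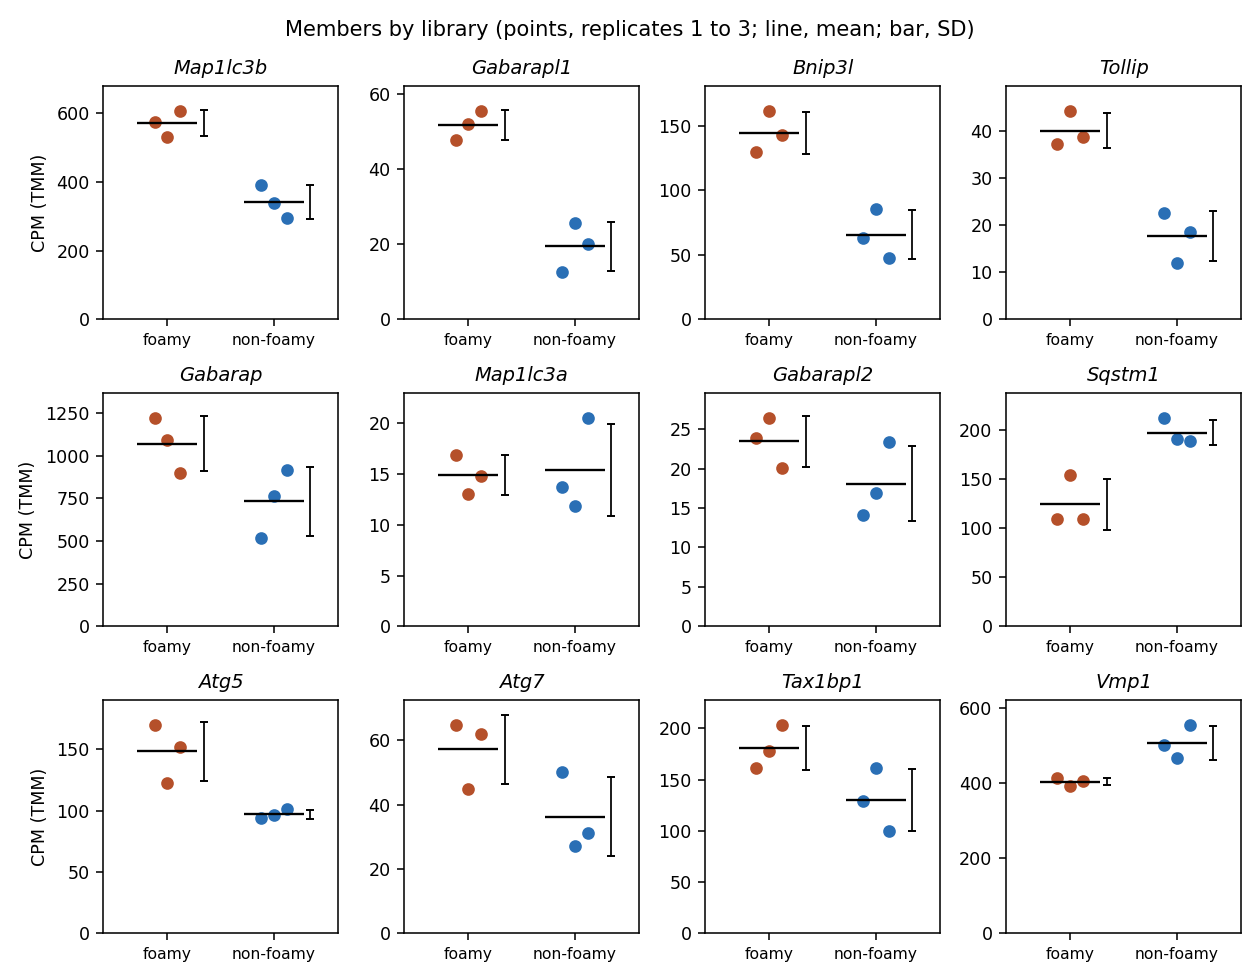
TMM-scaled CPM (vertical axes, each from 0) of 12 autophagy genes in foamy (red) and non-foamy (blue) libraries; points are replicates 1 to 3 from left to right, lines are means and bars are 1 SD. Map1lc3b, Gabarapl1, Bnip3l, Tollip and Atg5 lie higher in every foamy library, as does Tax1bp1 by a narrow margin, Sqstm1 and Vmp1 lie lower in every foamy library, and the other 4 genes overlap.

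Because Map1lc3b and Gabarapl1 were called in the same direction, their promoters are shown, from 250 bases before to 50 bases after the RefSeq start site (GRCm38.p6, both on the plus strand). Map1lc3b lies at chr8:121590188-121590487 and Gabarapl1 at chr6:129532942-129533241. The RefSeq start of Map1lc3b lies inside the deposited gene span, downstream of its 5' end at 121590361, and so does the match marked below. Capitals mark a match to TGACNNNGC, the core of the antioxidant response element, which NRF2 is known to bind.
Map1lc3b: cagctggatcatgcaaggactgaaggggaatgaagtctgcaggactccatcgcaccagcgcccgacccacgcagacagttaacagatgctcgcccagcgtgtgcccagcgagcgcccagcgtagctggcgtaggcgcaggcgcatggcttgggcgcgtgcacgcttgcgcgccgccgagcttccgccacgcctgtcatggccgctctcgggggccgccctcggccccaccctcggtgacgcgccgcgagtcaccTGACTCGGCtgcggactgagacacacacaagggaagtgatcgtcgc
Gabarapl1: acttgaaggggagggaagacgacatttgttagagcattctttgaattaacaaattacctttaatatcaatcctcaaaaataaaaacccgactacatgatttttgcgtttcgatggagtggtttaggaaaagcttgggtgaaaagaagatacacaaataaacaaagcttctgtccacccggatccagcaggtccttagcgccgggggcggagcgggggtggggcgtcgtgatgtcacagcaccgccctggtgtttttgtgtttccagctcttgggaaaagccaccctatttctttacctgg
Both strands of each window were searched for that core and for CACGTG, the E-box core of the motif that the lysosomal regulator TFEB is known to bind. The Map1lc3b window held TGACTCGGC with its first base at position 4, the start site being 0, and no CACGTG, and the Gabarapl1 window held neither. TGACNNNGC was found in 12.39% of all 32851 RefSeq windows of this length and CACGTG in 7.15%. Of the 33 windows of autophagy genes, 7 held TGACNNNGC and 5 held CACGTG. These windows belong to 28 genes. Of these genes, 5 held TGACNNNGC (Atg13, Map1lc3b, Tax1bp1, Ulk2 and Vmp1) and 5 others held CACGTG (Atg3, Atg5, Atg7, Atg14 and Rubcn). That is 17.86% of genes in each case, which is not a share of windows. The windows of the autophagy genes had a median GC content of 60.0% and 20 CpG sites, against 52.67% and 7 in all windows. These are matches of letters, and binding was not measured.

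Cargo receptors gave the other 2 calls and the lowest p-value among genes not called. Of 7 genes, 2 were called higher, 5 had a positive log2 fold change and the median was 0.45 (0.19 when only total counts set the scale). Bnip3l encodes NIX, a protein of the outer mitochondrial membrane that recruits LC3 and GABARAP proteins to mitochondria. Bnip3l (ENSMUSG00000022051, chr14:66985239-67008877, minus strand) had 129.6, 162 and 143 CPM in the foamy libraries, against 63.4, 85.4 and 47.7 CPM in the non-foamy ones. The groups were far apart, and non-foamy replicate 3 was the lowest. The log2 fold change was 1.14 (SE 0.24, edgeR adjusted p = 0.0183), with means of 145 ± 16.1 and 65.5 ± 18.9 CPM (SD, n = 3). The Bnip3l call was lost without foamy replicate 2 (1.07) or 3 (1.16), when only total counts set the scale (0.87, edgeR adjusted p = 0.0694) and in the test against a 1.5-fold change.

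Tollip encodes a ubiquitin-binding adaptor that also damps Toll-like receptor signalling. Tollip (ENSMUSG00000025139, chr7:141874813-141918507, minus strand) had 37.4, 44.35 and 38.7 CPM in the foamy libraries, against 22.7, 12.1 and 18.5 CPM in the non-foamy ones. The groups did not overlap. The log2 fold change was 1.18 (SE 0.30, edgeR adjusted p = 0.0437), with means of 40.2 ± 3.69 and 17.75 ± 5.36 CPM (SD, n = 3). Of 14 alternatives, 8 ended the call, while the log2 fold change stayed between 0.90 and 1.39. It was lost when only total counts set the scale (0.90), in the test against a 1.5-fold change, with a block on the replicate number (1.22, edgeR adjusted p = 0.0989), and on leaving out foamy replicate 1 (1.23), 2 (1.11) or 3 (1.21), or one of non-foamy replicates 2 (0.97) and 3 (1.22).

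Sqstm1 encodes p62, the receptor that gathers ubiquitinated protein and is itself degraded by autophagy. Sqstm1 (ENSMUSG00000015837, chr11:50199366-50210827, minus strand) had 109.6, 154.5 and 110.1 CPM in the foamy libraries, against 213, 192 and 189 CPM in the non-foamy ones. Every foamy library was lower than every non-foamy library, and foamy replicate 2 came nearest to them. The means were 125 ± 25.8 and 198 ± 12.95 CPM (SD, n = 3), a log2 fold change of -0.67 (SE 0.20, edgeR adjusted p = 0.079). It was called with a stricter filter on low counts (-0.69, edgeR adjusted p = 0.0469) and when only total counts set the scale (-0.93, edgeR adjusted p = 0.0311), and in no other of the 14 alternatives, where the log2 fold change ran from -0.56 to -0.84.

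The other 4 receptors were not called. Tax1bp1, a receptor for ubiquitinated cargo and ferritin, had 161, 178 and 203 CPM in the foamy libraries, against 129, 161 and 100.02 CPM in the non-foamy ones. Foamy replicate 1 lay just above non-foamy replicate 2, so the groups touched without overlap, and the log2 fold change was 0.47 (SE 0.21, edgeR adjusted p = 0.258). Optn, the receptor optineurin, averaged 5.12 ± 3.90 CPM, against 3.75 ± 1.13 (SD, n = 3; log2 fold change 0.45, SE 0.81), with 13 counts in foamy replicate 1 and 129 and 140 in the others. Nbr1, a relative of p62, averaged 20.6 ± 5.56 CPM, against 20.4 ± 10.8 (log2 fold change 0.02, SE 0.42, and -0.25 when only total counts set the scale). Calcoco1, a receptor for endoplasmic reticulum, averaged 15.2 ± 3.66 CPM, against 19.7 ± 6.45 (log2 fold change -0.37, SE 0.35).

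Promoter windows are shown likewise for Tollip, the called receptor with a window in the table, and for Sqstm1, the receptor on the other side of 0, each on the minus strand of GRCm38.p6. Tollip lies at chr7:141902412-141902711, inside the deposited gene span, and Sqstm1 at chr11:50210771-50211070.
Tollip: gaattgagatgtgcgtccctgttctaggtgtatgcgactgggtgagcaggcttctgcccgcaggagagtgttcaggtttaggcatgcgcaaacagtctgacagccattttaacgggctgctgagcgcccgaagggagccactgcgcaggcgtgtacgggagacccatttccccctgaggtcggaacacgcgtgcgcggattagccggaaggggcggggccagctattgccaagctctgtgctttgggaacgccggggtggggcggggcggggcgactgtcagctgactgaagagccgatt
Sqstm1: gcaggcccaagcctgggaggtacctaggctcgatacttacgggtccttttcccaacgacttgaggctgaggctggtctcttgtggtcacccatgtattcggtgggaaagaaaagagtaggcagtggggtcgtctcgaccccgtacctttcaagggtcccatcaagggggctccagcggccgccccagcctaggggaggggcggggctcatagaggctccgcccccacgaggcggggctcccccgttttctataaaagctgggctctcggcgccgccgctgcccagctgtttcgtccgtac
Neither window held CACGTG or TGACNNNGC on either strand, so neither has capitals. Atg3 was the autophagy gene with CACGTG at 2 places of its window, with first bases at positions -94 and -71, and it was not called (log2 fold change 0.11, SE 0.31).

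Ratios of counts within a library do not depend on how libraries are scaled. They were computed after these values were seen and are a description without a test. Map1lc3b, Bnip3l, Tollip and Gabarapl1 lay higher, and Sqstm1 lower, in every foamy than in every non-foamy library. Their ratios to Sqstm1 therefore could not overlap between the groups and add nothing to those values. The ratio of Map1lc3b to Sqstm1 was 5.24, 3.45 and 5.51 in foamy and 1.84, 1.77 and 1.55 in non-foamy libraries. The ratio of Bnip3l to Sqstm1 was 1.18, 1.05 and 1.29 in foamy and 0.298, 0.446 and 0.252 in non-foamy libraries. Neither ratio overlapped between the groups, and Bnip3l had more counts than Sqstm1 in each foamy library but in no non-foamy one. These counts are not adjusted for exon length. Per kilobase of exon, Bnip3l had 33.58, 41.88 and 36.95 CPM in foamy replicates 1 to 3, and Sqstm1 had 32.65, 46.04 and 32.8. On that scale Bnip3l lay below Sqstm1 in foamy replicate 2. Tollip over Sqstm1 stood at 0.287 to 0.352 in foamy and 0.0629 to 0.107 in non-foamy libraries, and Gabarapl1 over Sqstm1 at 0.337 to 0.505 and 0.0598 to 0.134.

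**Figure D3:**
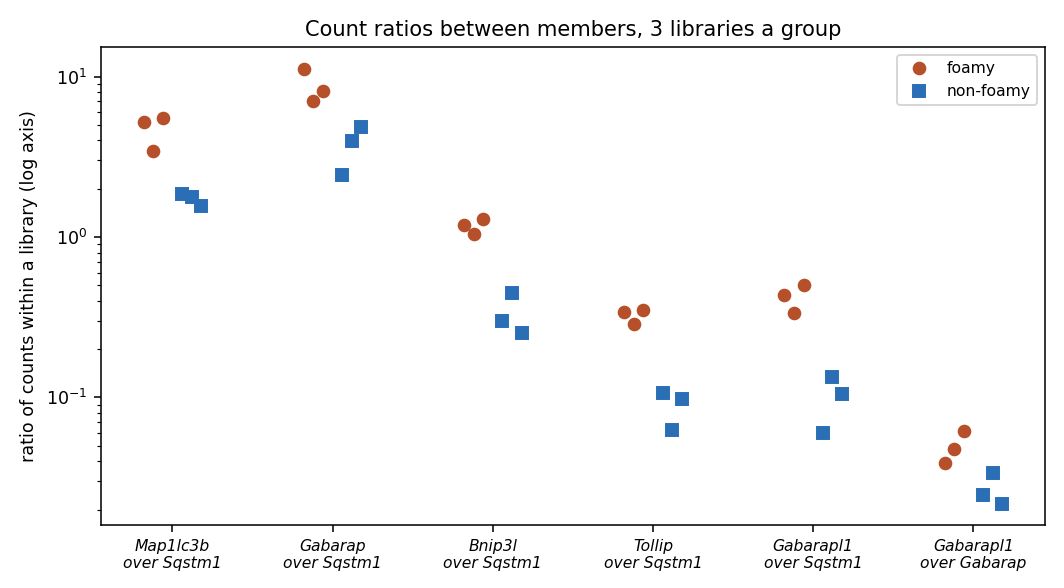
Ratio of the counts of 2 autophagy genes within each library (vertical log axis) in foamy (red circles) and non-foamy (blue squares) libraries, replicates 1 to 3 from left to right. All 6 ratios are higher in every foamy than in every non-foamy library, as in Map1lc3b over Sqstm1, at 3.45 to 5.51 against 1.55 to 1.84. For Map1lc3b, Bnip3l, Tollip and Gabarapl1 over Sqstm1 this follows from the values of the single genes.

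The ULK complex, which relays starvation and energy signals, had 5 genes tested and 0 called by edgeR, DESeq2 or limma-voom, with 0 at an unadjusted p under 0.05. Their median log2 fold change was 0.40, with 3 genes above 0 and 2 below. Ulk2, a kinase of the complex, averaged 30.1 ± 9.81 CPM in the foamy libraries, against 22.8 ± 9.07 CPM in the non-foamy ones (SD, n = 3; log2 fold change 0.40, SE 0.37). Ulk1, the kinase more often studied, had 60, 50 and 48 counts in foamy and 77, 5 and 154 counts in non-foamy libraries. Non-foamy replicate 2 was lowest and replicate 3 highest of all 6, and the log2 fold change was -0.36 (SE 0.91). The scaffold genes gave 0.52 (SE 0.50) for Atg13, 0.44 (SE 0.36) for Atg101 and -0.48 (SE 0.29) for Rb1cc1, which encodes FIP200.

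Class III PI3-kinase complexes make the lipid that early autophagosome proteins bind. Of 7 genes, 0 were called by edgeR, DESeq2 or limma-voom, 6 had a negative log2 fold change, and the median was -0.40, against -0.04 for all genes. At an unadjusted p under 0.05 edgeR had 0 and DESeq2 had 1, Atg14. In 3 of the 7 genes every foamy library lay below every non-foamy one, against 13.3% of all genes tested, and all 3 were at low levels. The margin was narrow in Uvrag (highest foamy 7.74 CPM, lowest non-foamy 7.99 CPM) and in Rubcn (4.12 and 4.22 CPM). Atg14, which directs the complex to autophagosomes, averaged 4.83 ± 0.47 CPM, against 9.15 ± 2.39 (SD, n = 3; log2 fold change -0.92, SE 0.47, edgeR adjusted p = 0.333). Uvrag, which takes the place of ATG14 in the endosomal form of the complex, averaged 6.32 ± 1.31 CPM, against 8.36 ± 0.60 (log2 fold change -0.40, SE 0.45). Rubcn, which encodes the inhibitor rubicon that is also needed for LC3-associated phagocytosis, averaged 3.87 ± 0.41 CPM, against 5.35 ± 1.33 (log2 fold change -0.47, SE 0.55).

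The other 4 genes of these complexes overlapped between the groups. The lipid kinase gene Pik3c3 averaged 13.3 ± 2.17 CPM, against 21.02 ± 6.91 (SD, n = 3; log2 fold change -0.66, SE 0.35, edgeR adjusted p = 0.358). Becn1, which encodes beclin 1, averaged 35.4 ± 3.13 CPM, against 38.2 ± 11.4 (log2 fold change -0.11, SE 0.28). Ambra1, a regulator of beclin 1, gave -0.28 (SE 0.89) at 2.90 and 3.51 CPM. Pik3r4, the regulatory subunit VPS15, was the only gene of the 7 above 0, at 0.59 (SE 0.81), with 13 counts in non-foamy replicate 3 and 156 in replicate 1.

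Among the enzymes that conjugate ATG12 and LC3, 7 genes were tested and 0 called by edgeR, DESeq2 or limma-voom, although 2, Atg5 and Atg7, had an unadjusted p under 0.05 in each of these tools. The median log2 fold change was 0.11, and -0.14 when only total counts set the scale. Atg5, the acceptor of ATG12, had 169.8, 123 and 152 CPM in the foamy libraries, against 93.7, 96.5 and 101 CPM in the non-foamy ones. The groups did not overlap, with non-foamy libraries close together and foamy libraries spread above them. The log2 fold change was 0.61 (SE 0.19, edgeR adjusted p = 0.100), and it was called in 0 of 14 alternatives. Atg7, the E1-like enzyme that both conjugations need, had 64.7, 44.9 and 61.9 CPM in the foamy libraries, against 50.2, 27.3 and 31.1 CPM in the non-foamy ones. Foamy replicate 2 lay below non-foamy replicate 1, and the log2 fold change was 0.66 (SE 0.29, edgeR adjusted p = 0.242).

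The other conjugation genes lay nearer to 0 or varied more. Atg12, the ubiquitin-like modifier, averaged 63.7 ± 14.6 CPM, against 47.4 ± 8.46 (SD, n = 3; log2 fold change 0.42, SE 0.25). Atg3, the E2-like enzyme for LC3, averaged 30.7 ± 11.5 CPM, against 28.4 ± 5.10, and its log2 fold change of 0.11 became -0.14 when only total counts set the scale. Atg4b, the protease that trims LC3, gave 0.04 (SE 0.28), which became -0.23 under that scaling. Atg10, the E2-like enzyme for ATG12, gave 0.08 (SE 0.26), which became -0.18. Atg16l1, which brings the conjugate to the membrane, had 45, 132 and 194 counts in foamy and 326, 106 and 269 in non-foamy ones (log2 fold change -0.77, SE 0.61).

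Of the genes for membrane supply and the early phagophore, edgeR and limma-voom tested 3 of 4 and called 0, with 0 at an unadjusted p under 0.05 in edgeR. DESeq2 tested all 4 and called 0, with 1, Atg9a, at an unadjusted p under 0.05. Vmp1, a membrane protein of the endoplasmic reticulum that moves lipid between membrane leaflets, had 415, 394 and 407 CPM in the foamy libraries, against 501, 468 and 556 CPM in the non-foamy ones. Every foamy library was lower, and the foamy libraries differed by little. The log2 fold change was -0.33 (SE 0.16, edgeR adjusted p = 0.312), and when only total counts set the scale it was called at -0.60 (edgeR adjusted p = 0.0426). Wipi2, which reads the lipid of the PI3-kinase and recruits ATG16L1, averaged 4.90 ± 1.87 CPM, against 9.33 ± 6.91 (SD, n = 3; log2 fold change -0.93, SE 0.66). Wipi1, its relative, averaged 3.69 ± 1.498 CPM, against 2.48 ± 2.26 (log2 fold change 0.58, SE 0.97), with 4 counts in non-foamy replicate 3.

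Atg9a, which encodes the scramblase on the vesicles that seed the autophagosome, was the only autophagy gene left out by the filter on low counts. It had 0, 1 and 6 counts in foamy and 28, 3 and 47 counts in non-foamy libraries. Only foamy replicates 1 and 2 lay below every non-foamy library. Where other settings tested it, the log2 fold change ran from -2.59 to -5.18, with adjusted p from 0.159 (DESeq2) to 0.542 (edgeR without foamy replicate 2), so no difference was detectable at this depth.

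How well a gene was measured followed its level. The 8 autophagy genes over 50 CPM had a median SD of 13.4% of the mean in foamy and 16.1% in non-foamy libraries. The 16 genes between 10 and 50 CPM had 17.5% and 31.5%. The 11 genes under 10 CPM had 39.2% and 74.0%, and the median SE of their log2 fold changes was 0.74, against 0.20 over 50 CPM. All 4 called genes were over 10 CPM, whereas 5 of the 7 PI3-kinase genes and 3 of the 4 membrane supply genes were under it. Per kilobase of exon, Gabarap had the highest level of the 35 genes in both populations (580 ± 87.6 and 397 ± 109 CPM per kilobase), Vmp1 was next (105 and 132) and Atg9a the lowest. In foamy libraries Map1lc3b had rank 3 and Sqstm1 rank 6 (76.0 and 37.2 CPM per kilobase), and in non-foamy libraries Sqstm1 had rank 3 and Map1lc3b rank 4 (59.0 and 45.5). These ranks too depend on the length of all exons of a gene, not on that of one transcript.

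**Figure D4:**
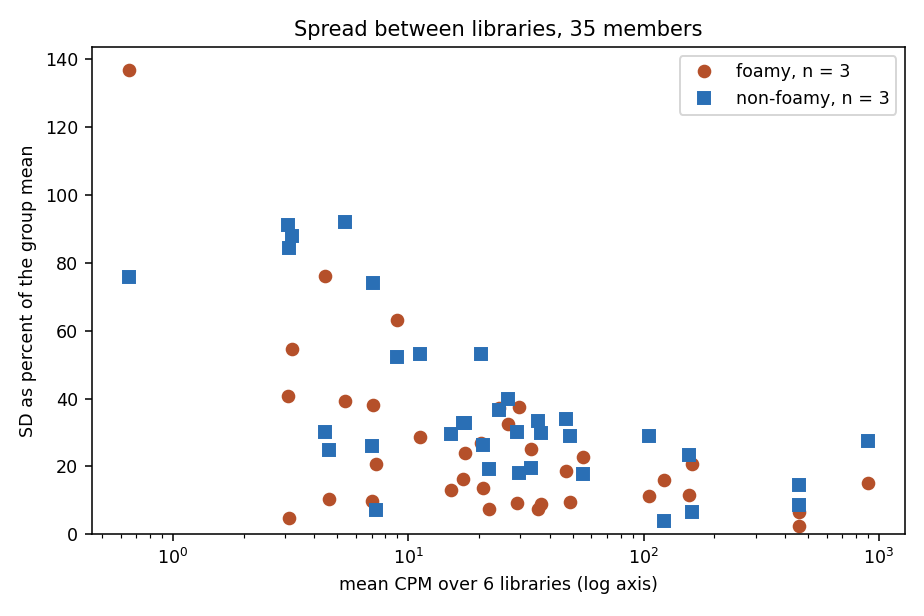
SD as a percent of the group mean (vertical axis) against mean TMM-scaled CPM over 6 libraries (horizontal log axis) for 35 autophagy genes, in foamy (red circles) and non-foamy (blue squares) libraries, n = 3 each. The spread falls with the level, from a median of 39.2% and 74.0% under 10 CPM to 13.4% and 16.1% over 50 CPM.

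Some reads of these genes could also belong to another gene. Of the 35 genes, 7 shared over 10% of their 50-base exonic windows, the length of a read, with another gene, among them Becn1 (36.8%, Cntd1), Atg9a (30.5%, Gm29253), Gabarapl1 (23.1%, 1700101I11Rik), Bnip3l (20.8%, its pseudogene Bnip3l-ps) and Sqstm1 (15.5%, Mrnip). The counts of these neighbours were low: 1700101I11Rik had 82 counts over the 6 libraries against 4179 of Gabarapl1, Bnip3l-ps had 177 against 12210 of Bnip3l, and Mrnip had 458 against 19343 of Sqstm1. How the counting treated strand and reads that fit several genes is not given in the sources used here. These values are therefore less certain than those of Tollip, Gabarap, Atg5 and Atg7, which shared no window. The exons of Vmp1 include the locus of the microRNA miR-21a, which had 0 counts of its own in each library.

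Other genes of the route were read from the same fit. Of 16 other core autophagy genes tested, edgeR called 0 and had 2 at an unadjusted p under 0.05, with a median log2 fold change of -0.15. Limma-voom called 0 and DESeq2 called 1, Nrbf2, a subunit of the PI3-kinase complex with ATG14 (log2 fold change 1.72, adjusted p = 0.0246 in DESeq2 and 0.235 in edgeR), named after its values were seen. Of 15 other cargo receptors and mitophagy genes tested, edgeR and limma-voom called 0, with 2 at an unadjusted p under 0.05 in edgeR, and the median was 0.00. DESeq2 called 1 lower, Retreg1, a receptor for endoplasmic reticulum also chosen after its values were seen (log2 fold change -0.72, adjusted p = 0.0251 in DESeq2, and 0.0529 in edgeR). Bnip3, the closest relative of Bnip3l, averaged 22.5 and 22.6 CPM and gave 0.00 (SE 0.30).

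Genes that join autophagosomes to lysosomes and the kinases above the ULK complex held no edgeR call. In the fusion list 14 genes were tested, with 1 at an unadjusted p under 0.05 and a median of 0.29. That gene, Tecpr1, a tether between autophagosome and lysosome named after its values were seen, averaged 18.7 CPM in foamy and 6.27 in non-foamy libraries, at a log2 fold change of 1.58 (SE 0.43, edgeR adjusted p = 0.0619), and was called by DESeq2 (adjusted p = 0.00363) and limma-voom (adjusted p = 0.0449). Among 9 genes of AMPK and mTORC1 tested, edgeR and limma-voom called 0, with 1 at an unadjusted p under 0.05 in edgeR, and the median was 0.16. DESeq2 called 1, Prkag1, a regulatory subunit of AMPK (log2 fold change 0.77, adjusted p = 0.0361), likewise named after its values were seen. Of 20 genes for lysosomal proteins, which receive the cargo, edgeR called 16 higher and 0 lower, with 17 higher and 0 lower at an unadjusted p under 0.05, and the median was 1.101. DESeq2 called 17 higher and limma-voom 16, and neither called one lower. The calls with the smallest p were the protease Ctsl (3.24), the proton pump subunit Atp6v0d2 (2.57), the protease Ctsd (2.14) and Psap (1.64), each a log2 fold change.

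**Figure D5:**
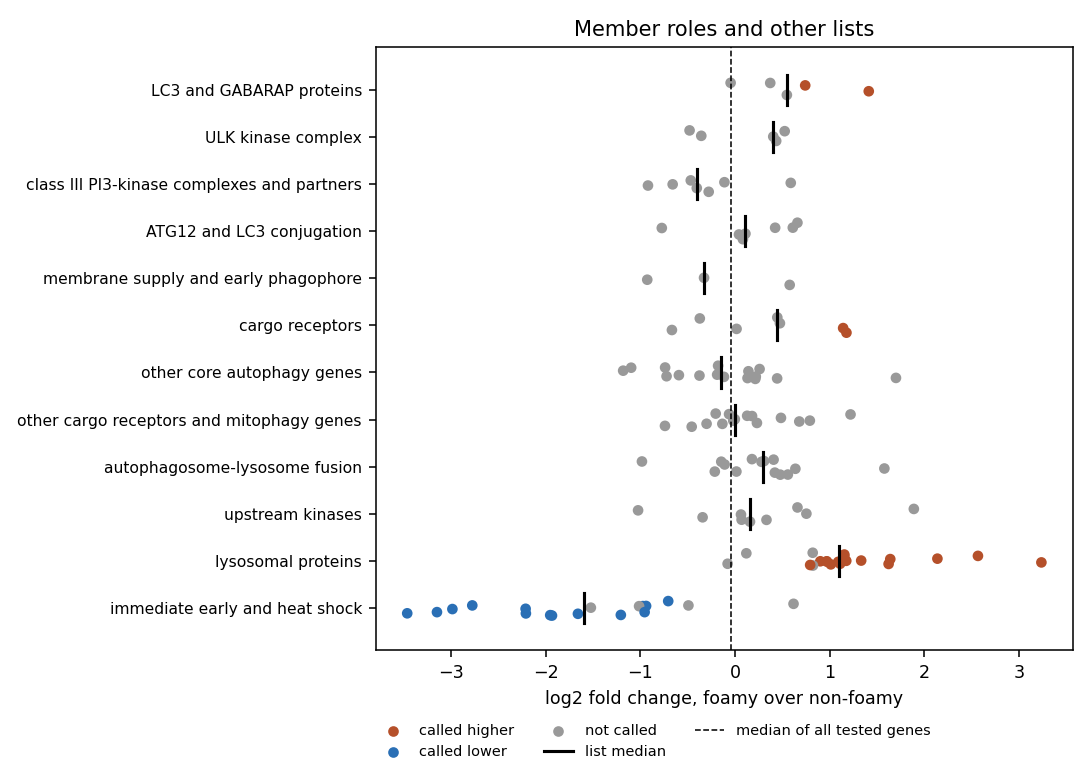
Log2 fold change (horizontal axis) of each tested gene in the 6 role groups and in 6 other lists; red points were called higher, blue points lower and grey points not called, black lines are list medians and the dashed line is the median of all genes tested. The lysosomal list has a median of 1.101, and the other core autophagy genes have -0.15.

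Several other measures differed between the same libraries, and their part in the autophagy values was not tested. Of 18 immediate early and heat shock genes tested, which tissue digestion is known to induce, edgeR called 14 lower and 0 higher in foamy libraries, with 16 lower and 1 higher at an unadjusted p under 0.05. DESeq2 called 16 lower and limma-voom 13, and neither called one higher. The median was -1.59, and the summed level was 2450 to 2945 CPM in foamy and 5628 to 8107 CPM in non-foamy libraries. The lowest p-values belonged to Nr4a1 (log2 fold change -2.98), Hspa1a (-3.15), Hspa1b (-3.46) and Btg2 (-1.66). Monocyte markers had 8 of 11 tested genes lower, and summed to 70.9 to 87.5 CPM in foamy and 706 to 1015 CPM in non-foamy libraries. Nr4a1 stands in both of these lists. B cell markers had 1 of 2 tested genes lower, at 94.2 to 124 against 579 to 694 CPM, most of it Ighm, while Cd79a and Pax5 were at or near 0. T cell markers had 1 of 2 tested genes higher in edgeR, Cd4, and summed to 25.2 to 38.6 against 2.79 to 7.59 CPM. DESeq2 and limma-voom called Cd28 higher as well (adjusted p = 0.00912 in DESeq2 and 0.0382 in limma-voom). Trbc2 was at 0 and Cd3e near 0 in both populations. Dendritic cell markers summed to 0.38 to 16.1 CPM in foamy and 33.5 to 256 CPM in non-foamy libraries. Most of the non-foamy sum was Cd209a, at 178, 249 and 32.2 CPM in replicates 1 to 3. Ccr7 and Siglech were at 0 in foamy libraries. Of the 8 dendritic cell markers edgeR tested 1 and called 0, with 0 at an unadjusted p under 0.05. Limma-voom called 0, and DESeq2 called Clec9a higher and Cd209a and Siglech lower. Neutrophil markers had Mmp8 higher and S100a9 lower among 5 genes tested by edgeR, and summed to 45.7 to 72.9 CPM in foamy and 16.4 to 46.8 CPM in the other libraries. S100a9 was at or near 0 in foamy libraries, and limma-voom did not call it (adjusted p = 0.111). DESeq2 also called Csf3r higher (adjusted p = 0.00298) and Retnlg lower (adjusted p = 0.0457). Smooth muscle, endothelial and fibroblast markers had 3, 3 and 5 genes tested and 0 called by edgeR, DESeq2 or limma-voom, with 0 at an unadjusted p under 0.05 in edgeR in each. Their levels varied between libraries. Fibroblast markers summed to 6.69, 3.18 and 171.4 CPM in foamy and 129.8, 14.2 and 306.7 CPM in non-foamy replicates 1 to 3. With a block on the replicate number, edgeR called Dcn lower (log2 fold change -4.075, adjusted p = 0.00113). Smooth muscle markers summed to 3.28 to 28.3 and 4.79 to 24.2 CPM, and endothelial markers to 10.1 to 15.1 and 13.4 to 16.7 CPM.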

How the data were processed

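Bulk RNA-seq libraries, 3 of foamy and 3 of non-foamy macrophages, were made with a low-input cDNA kit and read as single reads, per the labels' protocols. Per the submitters' processing notes, the tools include STAR 2.0.4b, featureCounts 1.4.5 and Subread, with GRCm38 as genome build. Each deposited count is an unnormalized number of reads in a gene. The deposited CPM is that count scaled to the library's total in genes, and the deposited RPKM is that CPM per kilobase; both were checked to 1e-06 and not used further. No molecular identifiers are named, so a share or ratio of counts carries more error than counting alone gives.

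Under R 4.3.3, edgeR 4.0.16 filtered genes (filterByExpr), set TMM factors and fitted a robust quasi-likelihood model without covariates, and p-values of its F-test were adjusted by Benjamini-Hochberg across 11303 genes and called under 0.05. Log2 fold changes are foamy over non-foamy; means and SDs are of TMM-scaled CPM over 3 libraries. These factors were 0.868, 0.966 and 0.899 in foamy and 1.186, 1.08 and 1.035 in non-foamy replicates 1 to 3. They thus raised every foamy value relative to every non-foamy value, compared with scaling to total counts alone. The biological coefficient of variation was 0.505. The procedure was tested on simulated data.

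IDs were matched to GENCODE M21, which named 40254 (97.26%) of them. Coordinates are those of the deposited tables, and promoters are RefSeq windows of 300 bases on GRCm38.p6, found for 28 of the 35 genes. The autophagy genes, the lists and the rule for named genes were chosen with earlier results of these data known, although no measured value entered the choice of the autophagy genes as a threshold. By that rule each library's value is given for the 5 LC3 and GABARAP genes, Sqstm1, every called autophagy gene and the 6 genes not called with the smallest p, and up to 4 called genes are named from each other list. Alternatives were RLE factors and total counts alone for scaling, DESeq2 1.42.0, limma-voom (limma 3.58.1), leaving out the filter or requiring 10 counts in 3 libraries and 5 CPM on average, blocking on the replicate number, testing against a 1.5-fold change, and omitting each library in turn.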

Additional observations from a re-analysis of the deposited data

How the results depend on the processing

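The count of all called genes was 1408 with DESeq2, 276 in the test against a 1.5-fold change and 271 to 579 with one library left out, against 611 from edgeR with all libraries. The count of called autophagy genes was 0 in the test against a 1.5-fold change and 0 to 4 with one library left out: 1 when foamy replicate 1 was omitted, 0 when foamy replicate 2 or 3 was, and 2 when non-foamy replicate 2 or 3 was. With the replicate block, 391 genes and 2 autophagy genes, Gabarapl1 and Bnip3l, were called. Same-numbered libraries did not deviate together (correlations -0.122, -0.033 and -0.048). Whether they came from the same mice is not stated. These correlations cannot decide it, because noise within each library lowers them whether or not mice were shared. The median of the autophagy genes was -0.16 with total counts as the only scaling and 0.06 to 0.21 with one library left out. Directions that turned belonged to genes near 0 or at low levels. They turned with total counts alone in Atg3 (-0.14), Atg4b (-0.23), Atg10 (-0.18) and Nbr1 (-0.25), with limma-voom in Ulk1 (0.32), Ambra1 (0.14) and Optn (-0.21), without a filter in Map1lc3a (0.049) and Becn1 (0.006), with the stricter filter in Nbr1 (-0.009), and with the replicate block in Ulk1 (0.26) and Optn (-0.008). With one library left out, log2 fold changes ran from -0.20 to 0.23 in Map1lc3a, -0.23 to 0.29 in Atg3, -0.79 to 0.57 in Ambra1, -0.18 to 0.21 in Atg4b, -0.33 to 0.46 in Nbr1, -0.326 to 0.079 in Becn1, -0.037 to 0.35 in Atg10 and -0.90 to 0.31 in Ulk1. In 471 pairs of an autophagy gene and an alternative, 26 turned direction, 24 lost and 3 gained a call, and 418 did neither; all 24 losses were in Gabarapl1, Map1lc3b, Bnip3l and Tollip. The causes of these changes were not tested. With 3 libraries a group an exact permutation test of a single gene cannot go below 0.1, so calls rest on the spread that edgeR shares between genes.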
